A study of Brassica rapa subsp. rapa with 9 samples.

Results

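Proteins in plant cells are taken apart by the ubiquitin and proteasome system and by peptidases, and the genes of both were measured here in the swollen hypocotyl of turnip under UV-B, UV-A and blue light. The genes were chosen by the wording of their deposited annotation: a probe was taken where its name mentioned ubiquitin, the proteasome, a peptidase or a protease. Names of inhibitors and of ribosome constituents were left out, as were RD21, AT4G11320 and AT1G72290. This gave 65 probes with 44 gene names, of 2507 probes tested. Genes carry the name of the match in the deposited annotation, nearly always an Arabidopsis gene. The member ADAMTS5 carries a name that is not of a plant gene. Probes of one name are told apart by clone number.

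The plant was Brassica rapa subsp. rapa, a red turnip named 'Tsuda'. Hypocotyls received UV-B, UV-A or blue light, each for 24 hours, and others were kept in darkness. Each of the 9 arrays, 3 per light, paired an exposed sample (Cy3) with a dark sample (Cy5), from a surface layer about 1-2 mm thick, and every biological replicate pooled more than 5 plants. All values below are log2(light/dark), so a positive value means more RNA in the light sample than in the dark sample of the same array. In such bulk tissue, a change in the share of a cell type and a change in the RNA per cell cannot be told apart. The dyes were never swapped, so dye bias of a probe stays in its values against dark and cancels in a difference between 2 lights.

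Ubiquitin is a small protein that is attached to other proteins as a tag. Activating enzymes pass it to conjugating enzymes, ligases choose the target and join ubiquitin to it, and ubiquitin-specific proteases take the tag off again. Tagged proteins are unfolded and cut in the core of the proteasome, a barrel of alpha and beta subunits, and peptidases such as tripeptidyl peptidase cut the released peptides further. Plant ligases take part in light, ethylene and auxin signalling, and other peptidases work in the vacuole, the plastid, the secretory pathway and the cell wall.

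The light signal of the members was above background (1.5 times) for 83.1% of them on UV-B replicate 1, the lowest of the 9 arrays, and for 93.8% to 100% on the others. Across the 65 probes, replicate arrays correlated at 0.578 to 0.775 in UV-B, 0.399 to 0.614 in UV-A and 0.114 to 0.253 in blue light, where the points share an array and are not independent. On blue replicate 3 the median of the 65 probes was -0.43, lower than on the other 2 blue arrays (0.11 and 0.22). Of the 135 empty spots, 79.3% to 99.3% exceeded background on replicate 3 of the lights, and at most 7.41% did so on the other 6 arrays. The part of this background in the results was not tested.

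UV-B raised 9 member probes and lowered 4, all against dark, at a limma adjusted p under 0.05. The highest rise was that of the annotated ubiquitin ligase AT5G63780 and the deepest fall that of the annotated signal peptidase AT2G39960. The 13 called probes, of 12 genes, were 20% of the 65, near the 24.7% of all 2507 probes that were called in UV-B. By direction, 13.8% of the members rose, against 10.8% of all probes, and 6.15% fell, against 13.9% of all probes. The median log2 of the members in UV-B was 0.29, against 0.01 for all probes, and 44 of the 65 were above 0. In UV-A their median was 0.17, against -0.0007 for all probes, and 47 of the 65 were above 0. Between UV-B and UV-A the median difference was 0.03 for the members and 0.04 for all probes. In UV-B the ubiquitin system and proteasome (40 probes) had a median of 0.36, with 5 probes higher and 1 lower. The peptidases (25 probes) had 0.06, with 4 higher and 3 lower, and this small median changed sign with median centring, with spot weights ignored and without UV-B replicate 1. Without UV-B replicate 1 the 13 calls became 8, while 13.1% of all probes were called. An alternative setting is one of the 18 other ways of processing or fitting the same arrays.

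**Figure D1:**
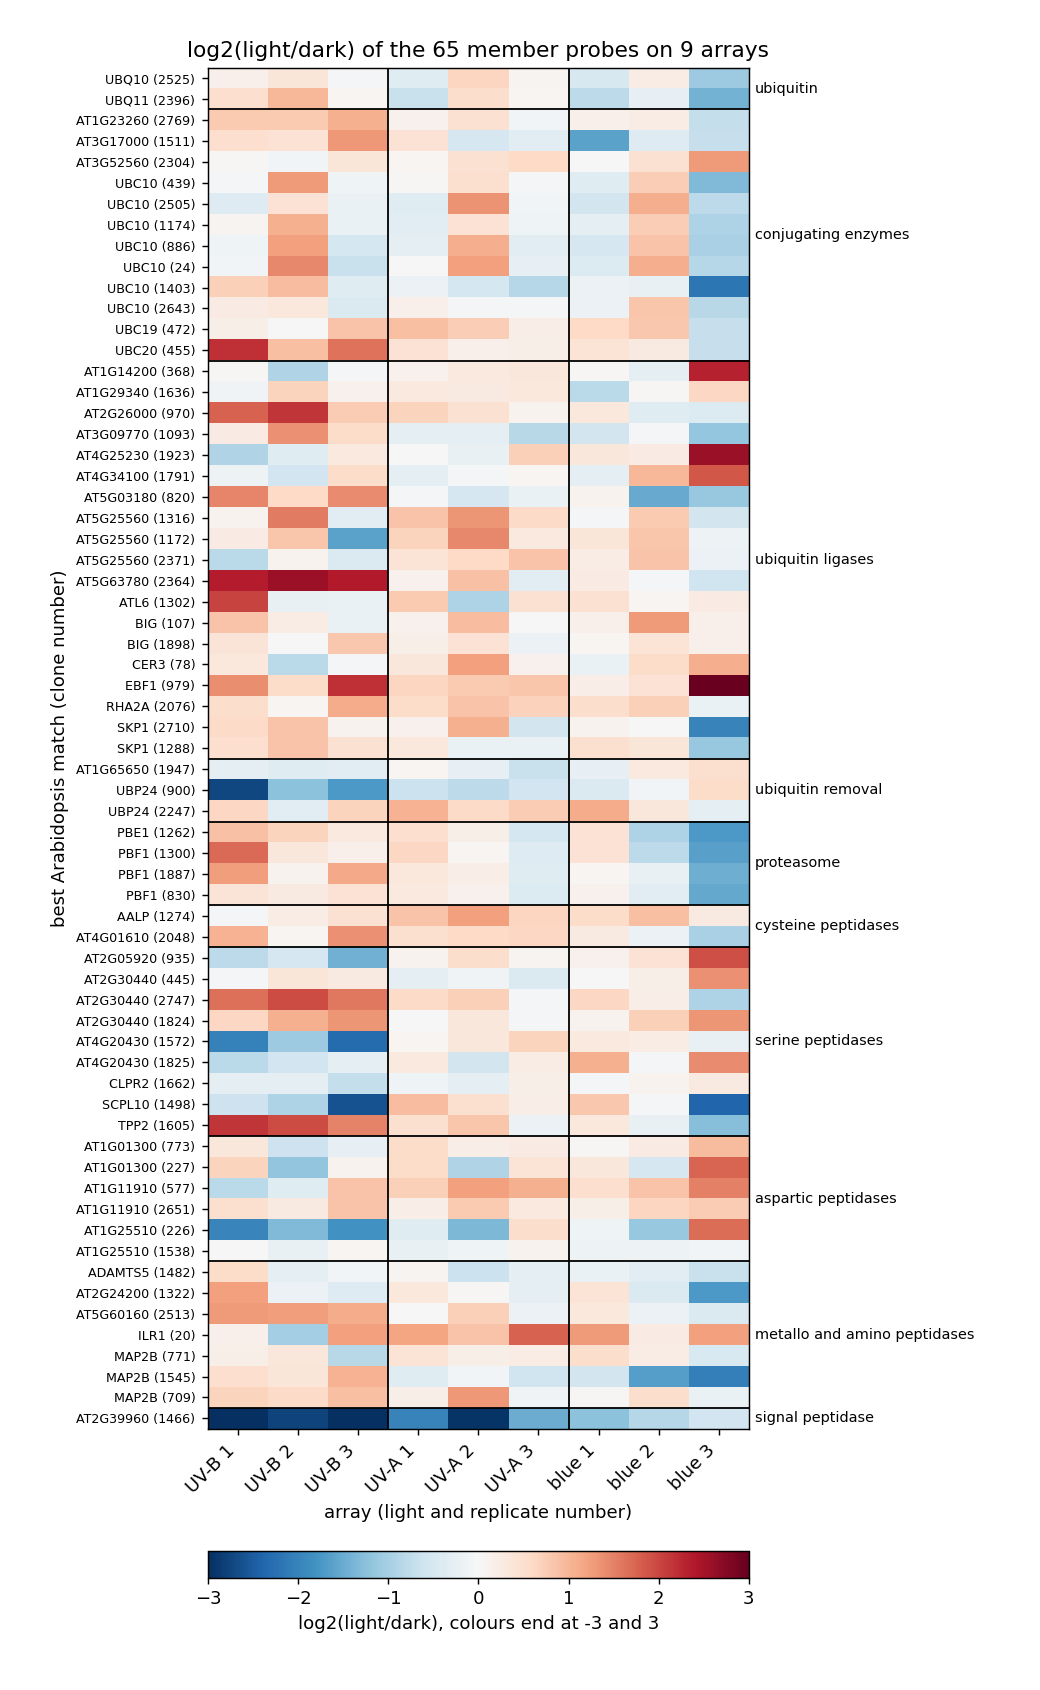
Colours give log2(light/dark) of each of the 65 probes (rows, grouped by role) on each of the 9 arrays (columns, in the order UV-B, UV-A, blue), red for more RNA in light and blue for more in dark. AT5G63780 (2.36 to 2.56) and AT2G39960 (-5.42 to -2.77) stand out on the 3 UV-B arrays, and many rows differ in colour between blue replicate 3 and the other blue arrays.

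Of 19 ligase probes, with 15 gene names, 3 rose in UV-B and none fell, where 10.8% of all probes rose and 13.9% fell. The same shares of all probes stand beside the UV-B counts of the other roles below. AT5G63780, a zinc-binding ubiquitin ligase in the annotation, had log2 values of 2.36, 2.56 and 2.38 on the 3 UV-B arrays. It had 0.13, 0.88 and -0.33 in UV-A, and 0.25, -0.04 and -0.59 in blue light. The UV-B arrays lay far above all others and close to each other. The mean rise was 5.4-fold (log2 2.43 ± 0.288 SE, n = 3, adjusted p = 0.000173), in place 13 of the rises among all 2507 probes, and the call held in each of the 18 alternative settings.

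AT2G26000, another annotated zinc-binding ligase, had 1.76, 2.14 and 0.77 in UV-B, 0.67, 0.45 and 0.10 in UV-A, and 0.33, -0.37 and -0.41 in blue light. Its lowest UV-B array still exceeded every array of the other 2 lights. It rose 2.94-fold (log2 1.56 ± 0.306, adjusted p = 0.00361). AT5G03180, which carries the same annotation, had 1.46, 0.59 and 1.43 in UV-B, -0.05, -0.51 and -0.19 in UV-A, and 0.11, -1.50 and -1.13 in blue light. It rose 2.24-fold (log2 1.16 ± 0.329, adjusted p = 0.0243), a call that was lost without UV-B replicate 1 (adjusted p = 0.14), without UV-B replicate 3 (0.14) and without all 3 arrays numbered 3 (0.123).

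The other 16 ligase probes did not pass in UV-B. SKP1, the adaptor that links F-box proteins to their ligase complex, had 2 probes with means of 0.51 and 0.60, and the second (clone 1288) was called in the authors' processed values (adjusted p = 0.0306). AT5G25560, an annotated zinc-binding ligase with 3 probes, had means of 0.45, -0.18 and -0.38 in UV-B. The light signals of the 2 probes with negative means (clones 1172 and 2371) passed 1.5 times background on 2 of the 3 UV-B arrays. EBF1, the F-box protein that sends the ethylene regulator EIN3 to the proteasome, was singled out after its values were seen. It had 1.40, 0.54 and 2.18 in UV-B, 0.64, 0.78 and 0.83 in UV-A, and 0.20, 0.44 and 2.96 in blue light. All 9 arrays were above 0 and the lights overlapped. Its mean in UV-B was 1.38 ± 0.472 (adjusted p = 0.0531), with adjusted p = 0.0127 when the replicate number was a block, a term of the model that sets arrays of the same number against each other. EBF1 was also called in 6 of the other alternative settings, with adjusted p from 0.00635 without blue replicate 3 to 0.0477 without blue replicate 1. AT3G09770, an annotated zinc-binding ligase, was called in UV-B only with that block (log2 0.72, adjusted p = 0.0453).

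Of 12 probes for conjugating enzymes, with 6 gene names, 2 rose in UV-B and none fell, where 10.8% of all probes rose and 13.9% fell. UBC20, a conjugating enzyme whose relatives act in the cell cycle, had 2.20, 0.89 and 1.64 in UV-B, 0.43, 0.16 and 0.18 in UV-A, and 0.41, 0.26 and -0.70 in blue light. The UV-B arrays lay above all 6 others. It rose 2.99-fold (log2 1.58 ± 0.311, adjusted p = 0.00362). UBC19, its close relative in Arabidopsis, had a mean of 0.35 and did not pass. The light and dark signals of UBC19 each passed 1.5 times background on 2 of the 3 UV-B arrays.

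AT1G23260, a conjugating enzyme variant of the kind that helps to build chains for signalling, had 0.80, 0.79 and 1.06 in UV-B, 0.12, 0.47 and -0.09 in UV-A, and 0.15, 0.23 and -0.72 in blue light. Its UV-B arrays did not overlap with the others. It rose 1.84-fold (log2 0.88 ± 0.269, adjusted p = 0.0325). This call was lost without any 1 of the 3 UV-B arrays (adjusted p = 0.11, 0.0757 and 0.157), without UV-A replicate 1 (0.0572), without all 3 arrays numbered 3 (0.0731), with median centring (0.0651) and with print-tip loess (0.113). AT3G17000, a conjugating enzyme that works in the degradation of misfolded proteins of the endoplasmic reticulum in Arabidopsis, had 0.50, 0.43 and 1.29 in UV-B and did not pass against dark (log2 0.74 ± 0.318, adjusted p = 0.115), though it did in the authors' processed values (log2 1.07, adjusted p = 0.0254).

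UBC10, a conjugating enzyme with many ligase partners, was carried by 7 probes, and none passed in any of the 6 comparisons, with the replicate block aside. The median of its 7 probes was -0.07, 1.06 and -0.36 on the UV-B arrays, -0.19, 0.47 and -0.12 on the UV-A arrays, and -0.37, 0.82 and -0.92 on the blue arrays. Array 2 was the highest of each light. On it 7 of 7, 5 of 7 and 6 of 7 probes were above 0 in UV-B, UV-A and blue light, and on each array 3 none was. With the replicate block, 1 of the 7 probes (clone 1403) was higher in UV-B than in blue light (difference 1.28, adjusted p = 0.0281, against 0.128 without it). Of the 2 polyubiquitin genes, UBQ11 had 0.49, 1.01 and 0.06 in UV-B, -0.68, 0.53 and 0.06 in UV-A, and -0.78, -0.26 and -1.41 in blue light. Its UV-B mean was 0.52 ± 0.322 (adjusted p = 0.273), with a call under median centring (log2 0.83, adjusted p = 0.0445) and in the authors' processed values (0.93, adjusted p = 0.0173). A spot of UBQ11 was saturated on 3 arrays and one of UBQ10 on 1, as were spots of 5 UBC10 probes on 1 to 4 arrays, so the sizes of these values are not exact.

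The proteasome itself was represented by 2 beta subunits of its core, PBE1 with 1 probe and PBF1 with 3. None of the 4 probes passed in any of the 6 comparisons, though some did under alternative settings. All 4 means were above 0 in UV-B (0.37 to 0.83) and below 0 in blue light (-0.73 to -0.54). The 0.37 was that of PBF1 clone 830, the dimmest of the 4. Its light signal passed 1.5 times background on 1 of the 3 UV-B arrays and its dark signal on 1, so its UV-B values are near background. PBE1 had 0.87, 0.66 and 0.29 in UV-B, 0.51, 0.18 and -0.54 in UV-A, and 0.44, -0.92 and -1.71 in blue light. The brightest PBF1 probe (clone 1300) had 1.69, 0.35 and 0.16 in UV-B, 0.61, 0.06 and -0.38 in UV-A, and 0.43, -0.79 and -1.62 in blue light. In both probes the array numbered 1 was the highest of its light and the array numbered 3 the lowest, and the lights overlapped.

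The difference between UV-B and blue light had a median of 1.36 over the 4 proteasome probes (0.94 to 1.39), with adjusted p between 0.069 and 0.161. The 0.94 was that of the dim clone 830. With the replicate block, 3 of the 4 were called, where 28.9% of all probes were. PBE1 then had a difference of 1.34 (adjusted p = 0.0224), PBF1 clone 1300 had 1.39 (adjusted p = 0.0127) and PBF1 clone 1887 had 1.38 (adjusted p = 0.0339). Clone 1300 was also called against dark in UV-B with the block (log2 0.74, adjusted p = 0.0384). Clone 1887 was called against dark in the authors' processed values (log2 1.01, adjusted p = 0.00941) and without blue replicate 3 (adjusted p = 0.0452).

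Other settings also called these probes between UV-B and blue light. Without blue replicate 1, PBE1 had adjusted p = 0.0222 and PBF1 clone 1300 had 0.042. PBF1 clone 1887 was called with print-tip loess (adjusted p = 0.0322), in the authors' processed values (0.0294) and without UV-B replicate 2 (0.0379). The third PBF1 probe, clone 830, whose UV-B signal was near background, was called with plain subtraction (0.0486).

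**Figure D2:**
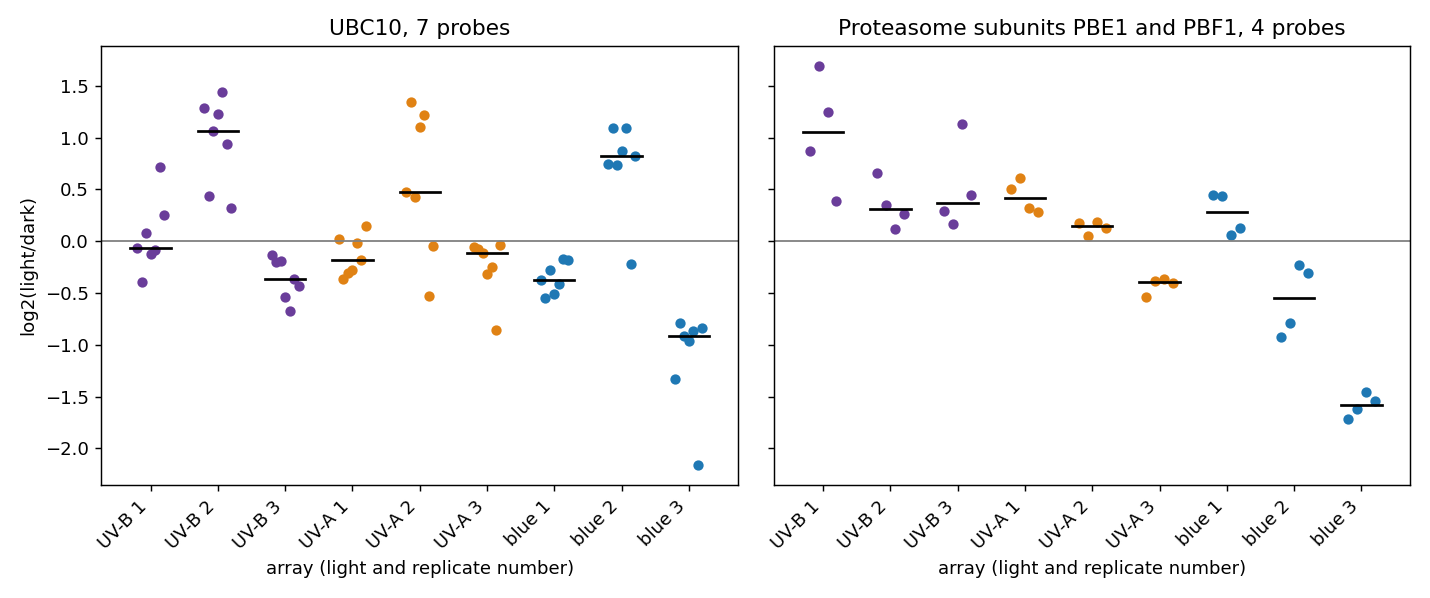
Points give log2(light/dark) of the 7 probes of UBC10 (left panel) and of the 4 proteasome probes (right panel) on each of the 9 arrays, and bars give the median per array. The UBC10 medians are highest on the arrays numbered 2 (1.06, 0.47 and 0.82), and the proteasome medians are lowest on blue replicate 3 (-1.58) and highest on UV-B replicate 1 (1.06).

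Among enzymes that remove ubiquitin, 1 of 3 probes fell in UV-B. UBP24, a ubiquitin-specific protease, had -2.74, -1.22 and -1.71 in UV-B, -0.64, -0.79 and -0.58 in UV-A, and -0.43, -0.08 and 0.55 in blue light (clone 900). The 3 UV-B arrays were the lowest of the 9. The probe fell by 1.89 ± 0.315 on the log2 scale (adjusted p = 0.00153), in each of the 18 alternative settings too. The other UBP24 probe (clone 2247) had 0.63, -0.31 and 0.68 in UV-B, with a mean of 0.33 (adjusted p = 0.495), and the difference between these probes was not tested.

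Among the peptidases, serine enzymes moved in both directions in UV-B, with 3 of 9 probes higher and 1 lower. Of all probes 10.8% were higher and 13.9% lower. TPP2, tripeptidyl peptidase II, a large cytosolic subtilase that shortens peptides released by the proteasome, had 2.14, 1.95 and 1.49 in UV-B, 0.49, 0.84 and -0.17 in UV-A, and 0.33, -0.22 and -1.27 in blue light. The UV-B arrays stood above the other 6. It rose 3.64-fold (log2 1.86 ± 0.331, adjusted p = 0.00208), although its mean was 1.03 (adjusted p = 0.0177) when spots of weight 0, which the main values leave out, were averaged in.

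AT2G30440, a serine-type peptidase in the annotation, had 3 probes, of which 2 rose in UV-B. Clone 2747 had 1.66, 1.96 and 1.58 in UV-B, 0.58, 0.72 and -0.07 in UV-A, and 0.63, 0.19 and -0.92 in blue light, a rise of 3.32-fold (log2 1.73 ± 0.315, adjusted p = 0.00231). Clone 1824 had 0.63, 1.07 and 1.31 in UV-B, -0.02, 0.34 and -0.03 in UV-A, and 0.11, 0.73 and 1.31 in blue light. For this probe UV-B overlapped with blue light, and its 2.01-fold rise against dark (log2 1.00 ± 0.284, adjusted p = 0.0243) was lost without any 1 of the 3 UV-B arrays (adjusted p = 0.0517, 0.079 and 0.149) and without all 3 arrays numbered 3 (0.0836). Clone 445 had a mean of 0.20 and did not pass. The log2 of clone 1824 was 1.85 with plain background subtraction.

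The 2 other subtilases, peptidases that plants mostly send to the cell wall, were each lower in UV-B in at least 1 comparison. AT4G20430 (clone 1572) had -2.04, -1.09 and -2.32 in UV-B, 0.05, 0.34 and 0.66 in UV-A, and 0.28, 0.21 and -0.21 in blue light. It fell by 1.82 ± 0.289 on the log2 scale (adjusted p = 0.0012), with no overlap between UV-B and either other light. Its other probe (clone 1825) had -0.82, -0.57 and -0.26 in UV-B and did not pass (log2 -0.55, adjusted p = 0.245). AT2G05920 had -0.78, -0.51 and -1.43 in UV-B, 0.10, 0.52 and 0.09 in UV-A, and 0.12, 0.44 and 1.94 in blue light. It did not pass against dark (log2 -0.91 ± 0.347, adjusted p = 0.0783), but did in the authors' processed values (adjusted p = 0.00633) and without blue replicate 3 (0.0196). SCPL10, an annotated serine carboxypeptidase singled out after its values were seen, had -0.62, -0.93 and -2.62 in UV-B (mean -1.39, adjusted p = 0.0774). It was called with the replicate block (adjusted p = 0.00758), without blue replicate 3 (0.0171) and with plain subtraction (log2 -1.65, adjusted p = 0.0319).

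Of 7 probes for metallo and amino peptidases, 1 rose in UV-B. AT5G60160, an aspartyl aminopeptidase in the annotation, had 1.27, 1.26 and 1.11 in UV-B, 0.00, 0.72 and -0.17 in UV-A, and 0.33, -0.19 and -0.43 in blue light. It rose 2.32-fold (log2 1.21 ± 0.269, adjusted p = 0.00694), with the 3 UV-B arrays close together, and its adjusted p was 0.0501 without UV-B replicate 1. MAP2B, a methionine aminopeptidase that removes the first residue of new proteins, had UV-B means of 0.64, 0.71 and -0.11 on its 3 probes, none of which passed. Clone 709 was called with plain subtraction (log2 1.85, adjusted p = 0.0197) and print-tip loess (0.91, adjusted p = 0.0182), and clone 1545 in the authors' processed values (0.71, adjusted p = 0.0339). ILR1, which frees the hormone auxin from its conjugates with amino acids, had 0.15, -1.02 and 1.24 in UV-B, where the arrays disagreed in sign.

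Of 6 probes for aspartic peptidases, 1 fell in UV-B, and of 2 for cysteine peptidases none passed. AT1G25510, a pepsin-type peptidase, had -1.99, -1.33 and -1.81 in UV-B, -0.36, -1.35 and 0.53 in UV-A, and -0.12, -1.13 and 1.68 in blue light (clone 226). UV-B overlapped with UV-A, and the light signal was above 1.5 times background on UV-B replicate 2 but not on the other UV-B arrays. The probe fell by 1.71 ± 0.472 (log2, adjusted p = 0.0219), a call lost without UV-B replicate 1 (adjusted p = 0.115) and without UV-B replicate 3 (0.109), and with plain subtraction of the background its log2 was -2.35. Its other probe (clone 1538) lay between -0.23 and 0.11 on all 9 arrays. AT1G01300, another pepsin-type peptidase, had UV-B means of -0.18 and -0.13 on its 2 probes. AT4G01610, a cysteine peptidase of the papain family, had 1.05, 0.06 and 1.37 in UV-B, with a mean of 0.82 ± 0.317 (adjusted p = 0.0804). It was called in 4 alternative settings, which were print-tip loess (adjusted p = 0.0199), the authors' processed values (0.00607) and the fits without UV-B replicate 2 (0.0293) or blue replicate 3 (0.0452).

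AT2G39960, annotated as a signal peptidase, the enzyme that trims the targeting sequence from secreted proteins, had the deepest fall of all members. Its log2 values were -3.81, -2.77 and -5.42 in UV-B, -2.00, -2.94 and -1.50 in UV-A, and -1.24, -0.85 and -0.58 in blue light. All 9 arrays were below 0, and UV-B and UV-A overlapped. On the UV-B arrays the light channel read 350, 464 and 259 intensity units over backgrounds of 296, 322 and 158. It passed 1.5 times background on UV-B replicate 3 alone, where 99.3% of empty spots passed too, so no UV-B array shows a light signal of this probe apart from background. The dark channel of the same arrays read 3476, 2296 and 9812.

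It fell in UV-B, to a mean log2 of -4.00 ± 0.435 (adjusted p = 0.000114), and in UV-A, to -2.15 ± 0.435 (adjusted p = 0.0255). In blue light its log2 was -0.89 ± 0.435 and did not pass (adjusted p = 0.223). With a light signal so near background the size in UV-B is not determined: it was -3.29 without UV-B replicate 3, -4.62 without UV-B replicate 2 and -5.15 with plain subtraction. The call in UV-A was lost without any 1 of the 3 UV-A arrays (adjusted p = 0.0943, 0.204 and 0.0819).

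**Figure D3:**
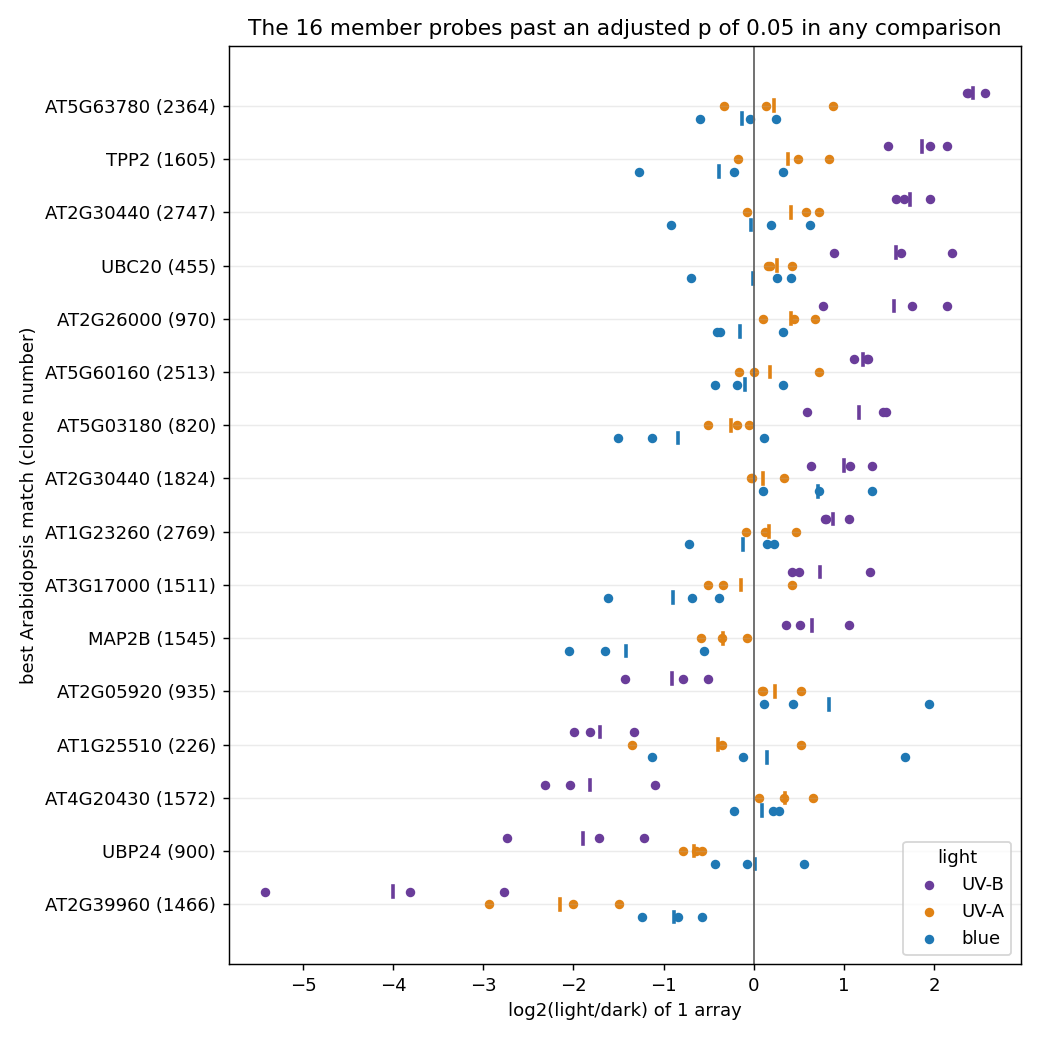
Points give log2(light/dark) per array for the 16 probes called in at least 1 of the 6 comparisons, bars give the mean of 3 arrays, and colours give the light. The UV-B points of AT5G63780 (2.36 to 2.56) lie apart from those of UV-A and blue light, and AT2G39960 is below 0 on all 9 arrays.

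Of the 44 gene names, 12 were carried by more than 1 probe and 5 of these had a call in some comparison, but in none of the 5 was every probe called. The 3 probes of AT2G30440 spanned log2 values of 0.20 to 1.73 in UV-B, and the 2 probes of AT1G25510 spanned -1.71 to -0.05. The 2 of SKP1 lay closer together, at 0.51 and 0.60. Probes of one name may represent different turnip copies of the gene, which the annotation does not separate, and related copies may bind the same probe. Of the 32 names with 1 probe, 10 had a call, for which no second probe can be compared.

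**Figure D4:**
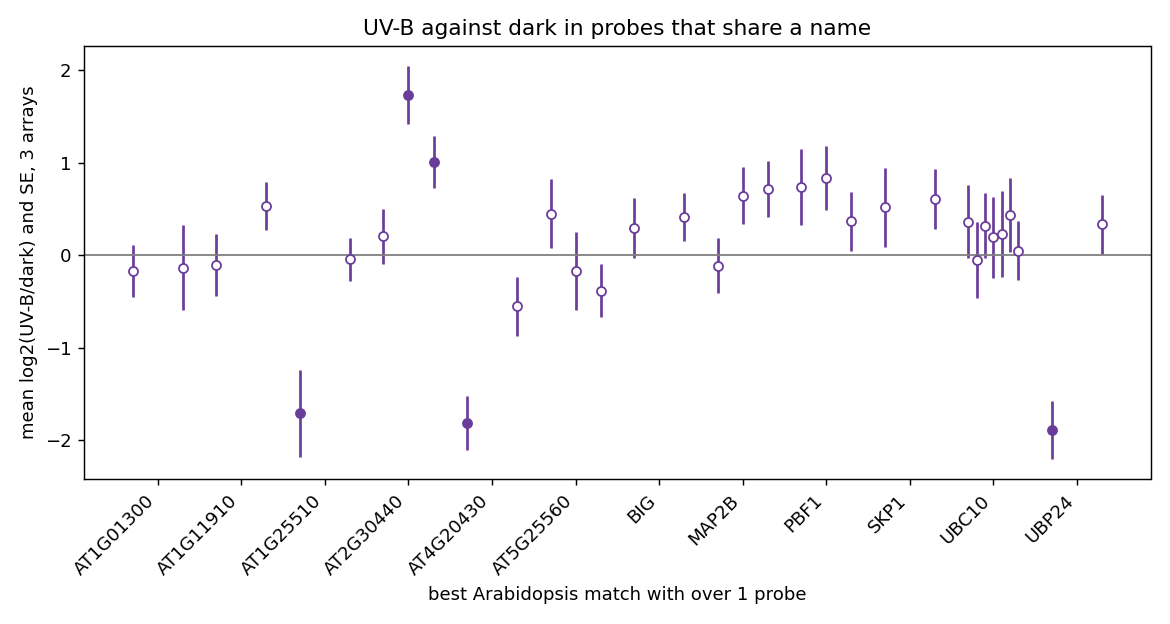
Points give the mean log2(UV-B/dark) of each probe of the 12 names with more than 1 probe, with its SE from the fit (3 arrays per light), and filled points passed an adjusted p of 0.05. AT2G30440, AT4G20430, AT1G25510 and UBP24 each hold filled and open points, and the 7 probes of UBC10 are all open.

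UV-B and blue light differed in 13 member probes, 20% of the 65, of which 9 were higher in UV-B and 4 lower. Among all probes 18.3% were called in this comparison, with 8.06% higher and 10.3% lower. These values use the same UV-B arrays as the comparison with dark. AT5G63780 was 2.56 ± 0.407 higher in UV-B (log2, adjusted p = 0.00241), TPP2 2.25 ± 0.468 (adjusted p = 0.00878) and AT5G03180 2.00 ± 0.465 (adjusted p = 0.0153). AT2G30440 clone 2747 was 1.77 higher, AT2G26000 1.71, UBC20 1.59 and AT5G60160 1.31 (adjusted p = 0.0205, 0.0206, 0.0292 and 0.0351). AT2G39960 had a difference of -3.11 ± 0.615 (adjusted p = 0.0072), AT4G20430 clone 1572 had -1.91 (adjusted p = 0.00972) and UBP24 clone 900 had -1.91 (adjusted p = 0.0159).

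The other 3 probes were called between these lights and did not pass in UV-B against dark. MAP2B clone 1545 had 0.51, 0.36 and 1.05 in UV-B, -0.36, -0.08 and -0.59 in UV-A, and -0.55, -1.65 and -2.04 in blue light, a difference of 2.05 ± 0.438 between UV-B and blue light (adjusted p = 0.00958). AT3G17000, the conjugating enzyme of the endoplasmic reticulum, had 0.43, -0.51 and -0.34 in UV-A and -1.61, -0.39 and -0.68 in blue light, and it was 1.64 ± 0.45 higher in UV-B than in blue light (adjusted p = 0.0283). AT2G05920 was 1.74 ± 0.491 lower in UV-B (log2 difference -1.74, adjusted p = 0.0315), and without the 3 arrays numbered 3 this was -0.93 (adjusted p = 0.184). In all 3 probes UV-B did not overlap with blue light, on the same values that gave the calls.

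With the replicate block, 23 member probes differed between UV-B and blue light, 15 higher and 8 lower, in place of 13, or 35.4% of the 65, while 28.9% of all probes were called, in place of 18.3%. Among those the block added were UBQ11 (difference 1.33, adjusted p = 0.0191, against 0.0618 without it), AT1G25510 clone 226 (-1.85, adjusted p = 0.0244, against 0.0743) and the second AT4G20430 probe, clone 1825 (-1.37, adjusted p = 0.0188, against 0.0546). Each of these 3 was also called in 2 other alternative settings, and AT3G09770 (difference 1.30, adjusted p = 0.0187 with the block) in 4 others.

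Of the 13 calls between UV-B and blue light, those of AT5G63780, TPP2, AT2G39960 and AT4G20430 clone 1572 held in all 18 alternative settings. The difference of AT2G39960 ran from -4.26 to -2.25 over these settings, and its UV-B light signal was near background, so its size is not determined. Of the other 9, 8 were lost without UV-B replicate 1, with adjusted p from 0.0597 (AT5G03180) to 0.115 (UBC20). The ninth, MAP2B clone 1545, was lost without all 3 arrays numbered 3 (adjusted p = 0.0841). AT5G60160 was lost in 7 settings, AT3G17000 and AT2G05920 in 5, UBC20 and AT2G26000 in 4, AT5G03180 and AT2G30440 clone 2747 in 3, and UBP24 clone 900 in 2. The count was 5 without UV-B replicate 1 (9.37% of all probes called), 8 without UV-B replicate 3 (8.7%), 8 without blue replicate 3 (11.2%) and 5 without all 3 arrays numbered 3 (7.42%).

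Between UV-B and UV-A, 2 member probes passed, 1 higher and 1 lower in UV-B, or 3.08% of the 65. Of all probes 6.62% did, 2.03% higher and 4.59% lower. AT5G63780 was 2.20 ± 0.407 higher in UV-B (log2, adjusted p = 0.00648), in each of the 18 alternative settings. AT4G20430 clone 1572 had a difference of -2.17 ± 0.409 (adjusted p = 0.00736), with adjusted p = 0.0506 without UV-A replicate 3 and 0.07 without the arrays numbered 3. With the replicate block 8 probes passed, 6 higher and 2 lower, or 12.3% of the 65, against 14.8% of all probes. TPP2 (difference 1.48, adjusted p = 0.0181, against 0.0816 without the block), AT5G03180 (1.41, adjusted p = 0.0257), AT2G30440 clone 2747 (1.32, adjusted p = 0.0333) and UBC20 (1.32, adjusted p = 0.044) were among them. The count was 4 without UV-B replicate 2 (8.3% of all probes called), 6 without blue replicate 3 (11.1%) and 1 without UV-A replicate 3 (2.99%). AT2G39960 was lower in UV-B than in UV-A with plain subtraction (difference -2.94, adjusted p = 0.00825) and without UV-B replicate 2 (-2.47, adjusted p = 0.0277), against 0.0929 as reported here.

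Few of these genes were called in UV-A or blue light. Against dark, UV-A lowered 1 member probe (AT2G39960, above) and raised none, 1.54% of the 65, while 3.19% of all probes were called, 1.12% higher and 2.07% lower. Blue light also lowered 1 and raised none, where 3.47% of all probes were called, 1.12% higher and 2.35% lower. That probe was MAP2B clone 1545, which fell by 1.41 ± 0.31 (log2, adjusted p = 0.0387) in blue light, a call kept in 9 of the 18 alternative settings, with a log2 of -1.10 without blue replicate 3 (adjusted p = 0.267) and -0.74 in the authors' processed values (adjusted p = 0.117). The other MAP2B probes did not pass in blue light. At an unadjusted p under 0.05 there were 8 member probes in UV-A, 12.3% against 20.4% of all probes, and 13 in blue light, 20% against 25.2%.

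With the replicate block the counts were 5 in UV-A, 7.69% of the members against 11.1% of all probes, and 6 in blue light, 9.23% against 16.1%. The block takes the shared deviations of an array number out of the error and tends to make p against dark too small. ILR1, the auxin-conjugate peptidase, had 1.18, 0.85 and 1.77 in UV-A and 1.27, 0.25 and 1.23 in blue light, all above 0. Its mean was 1.27 in UV-A (adjusted p = 0.105, or 0.0159 with the block) and 0.92 in blue light (adjusted p = 0.177, or 0.0422 with the block). AT5G25560 clone 1316 had 0.85, 1.32 and 0.58 in UV-A and a mean of 0.92 (adjusted p = 0.19, or 0.0366 with the block). AALP, a vacuolar cysteine peptidase singled out after its values were seen, had 0.86, 1.24 and 0.65 in UV-A (adjusted p = 0.0737, or 0.0346 with the block and 0.0494 without blue replicate 3). AT5G03180 had a mean of -0.84 in blue light (adjusted p = 0.151, or 0.0482 with the block).

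Between UV-A and blue light, limma called none of the 65 probes and 0% of all 2507 probes. At an unadjusted p under 0.05 there was 1 member probe and 80 of all probes. No alternative setting, the replicate block included, called a member in this comparison.

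The 22 probes not taken by the naming rule, with 20 gene names, include EBF1, AT3G09770, SCPL10, AALP, UBC19 and UBQ10, which were mentioned above after their values were seen. None of the 22 passed in any of the 6 comparisons. Under alternative settings other than the block, EBF1 and SCPL10 were called against dark in UV-B, AALP in UV-A, AT3G09770 between UV-B and blue light and SCPL10 between UV-B and UV-A (adjusted p = 0.0416 without blue replicate 3). Their UV-B means ran from -1.39 to 1.38 with a median of 0.18, and 14 of the 22 were above 0.

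Other genes of protein turnover were few on the array. CDC48, an ATPase that extracts ubiquitin-tagged proteins and passes them to the proteasome, had 1 probe, which fell by 1.68 in UV-B (log2, adjusted p = 0.00194). APG8A, a ubiquitin-like protein of autophagy, rose in UV-B on 1 of 2 probes (log2 1.35, adjusted p = 0.0318), and the other had 0.18. Of 10 chaperone probes 1 rose in UV-B, a probe of the copper chaperone CCS1 (log2 1.57, adjusted p = 0.00208). Of 38 probes for peptidase inhibitors, with 4 gene names, 7 rose and 5 fell in UV-B, none passed in UV-A and 1 rose in blue light. Of all probes 24.7% were called in UV-B. Most of the inhibitor probes were of AT1G72290, which was left out of the members. Its probes were called in both directions in UV-B, from a log2 of 3.62 (clone 972) to -1.58 (clone 77). No probe outside the members carried a name of the lists for cullin and signalosome genes or for RING proteins.

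Markers of other cells could be read only in part, since no probe outside the members matched the lists for epidermis and vascular tissue. LHCB2.1, an antenna protein of cells with chlorophyll, had 2 probes, with means of 0.62 and 0.67 in UV-B, which did not pass, and 1 of them rose in blue light (log2 1.24, adjusted p = 0.0494). The list of root and storage organ genes held 32 probes of 3 genes, 29 of them of the peroxidase PRXR1 and 3 of aquaporins. In UV-B 27 of the 32 fell and none rose, with array medians of -1.99, -1.58 and -2.66. The array medians were -0.05, 1.04 and 0.78 in UV-A, and 0.05, 0.80 and 0.46 in blue light, where no probe passed. These genes therefore fell on the same UV-B arrays on which the members were called, and their part in the members' values was not tested.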

How the data were processed

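Each of the 9 deposited array files holds foreground and background intensity values per spot in both dyes, and a weight of 0 or 1, a score whose meaning the deposited files do not state. The scanner software was not given in the sources used here. The 5300 spots of weight 1 were used. Background was corrected with normexp (offset 50) and log ratios were normalized by loess within each array, in R 4.3.3 with limma 3.58.1; figures used Python 3.11.15 and matplotlib 3.10.9. Values of spots that share a clone were averaged. A filter (1.5 times background in 1 channel on 3 arrays) removed no probe. Light was Cy3 and dark Cy5, per the labels, with no dye swap, and the dark-against-dark arrays of the design text are not analysed here. Groups came from the sample titles.

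One limma model with a mean per light over 9 arrays gave 6 comparisons (two-sided, Benjamini-Hochberg over 2507 probes, threshold 0.05). The spread of the dark samples enters only through the ratios, and whether lights shared a dark sample was not given in the sources used here. The number of arrays limits the precision. Deviations of arrays from the mean of their light correlated at 0.105 to 0.622 for the same replicate number (9 pairs). For different numbers they correlated at -0.625 to 0.0591 (18 pairs). Deviations cancel out within a light, so the low values for different numbers are no separate evidence. The numbers were read as pairing the arrays, and the main model holds no term for this. The labels do not say what a number shares.

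The authors' table of processed log2 values runs as dark over light (correlation with log2(light/dark) -0.963 to -0.854, column medians -0.165 to 0.047), the opposite of the direction printed here, and its sign was turned. How it was normalized was not given in the sources used here. It served as an alternative, as did other background, normalization, weight, filter and saturation settings, the replicate block and fits with fewer arrays. Members and lists were chosen with earlier results of these data known. The text names genes with a call, the brightest of each role, those with at least 3 probes and the proteasome, and others as it says. None of the 44 names matched the turnip gene table, so no position is given.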

Additional observations from a re-analysis of the deposited data

Results flagged for a closer look

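These results are listed because the response to UV-B differed from that to another light, by limma's test of the difference between the lights. As a group the members were not called much more often than other probes. Against blue light 20% of the members and 18.3% of all probes were called, and against UV-A 3.08% and 6.62%. Against blue light, probes that were higher in UV-B were those of AT5G63780 (difference 2.56, log2), TPP2 (2.25), MAP2B clone 1545 (2.05), AT5G03180 (2.00), AT2G30440 clone 2747 (1.77), AT2G26000 (1.71), AT3G17000 (1.64), UBC20 (1.59) and AT5G60160 (1.31). Lower in UV-B than in blue light were AT2G39960 (-3.11), AT4G20430 clone 1572 (-1.91), UBP24 clone 900 (-1.91) and AT2G05920 (-1.74). The size for AT2G39960 is not determined, as its light signal in UV-B was near background. Against UV-A, AT5G63780 was higher in UV-B (2.20) and AT4G20430 clone 1572 was lower (-2.17). The adjusted p of these 15 differences ran from 0.00241 to 0.0351. In each of these 15 differences the arrays of the lights compared did not overlap. The same values gave the calls, so this is no separate support, and the share of all probes without overlap was not counted.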

How the results depend on the processing

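Each count of called members was recomputed under 18 alternatives, and no called value changed direction. The share of all probes that were called moved as well, and is given beside the share of the members. In UV-B against dark (13 calls) the authors' processed values gave 21, or 32.3% of the members against 28.4% of all probes. Leaving out 1 array gave 8 (12.3% against 13.1%, without UV-B replicate 1) to 18 (27.7% against 29.4%, without blue replicate 3). In UV-A against dark (1 call) the replicate block gave 5 (7.69% against 11.1%). Leaving out 1 array gave 0 to 2, with 0% to 5.31% of all probes called. In blue light against dark (1 call) the block gave 6 (9.23% against 16.1%). Print-tip loess, the authors' values and a fit without all arrays numbered 3 gave 0, with 2.95%, 0.519% and 0% of all probes called. Leaving out 1 array gave 0 to 1, with 0% to 4.07% of all probes called. Between UV-B and blue light (13 calls) the block gave 23 (35.4% against 28.9%) and the fit without arrays numbered 3 gave 5 (7.69% against 7.42%). Leaving out 1 array gave 5 to 14, with 8.7% to 18.3% of all probes called. Between UV-B and UV-A (2 calls) print-tip loess gave 4 (6.15% against 8.34%) and the authors' values 5 (7.69% against 10.5%). The block gave 8 (12.3% against 14.8%) and the fit without arrays numbered 3 gave 1 (1.54% against 3.23%). Leaving out 1 array gave 1 to 6, with 2.99% to 11.1% of all probes called. The causes of these shifts were not tested. The pairing by replicate number rests on correlations of the arrays, and the block ended no call among the members. Probes without a call that gained one under at least 1 alternative numbered 12 in UV-B against dark (10 of them under an alternative other than the block), 4 in UV-A (1), 5 in blue light (0), 12 between UV-B and blue light (9) and 9 between UV-B and UV-A (7). Besides those named in the report, these include UBP24 clone 900 (difference -1.52, adjusted p = 0.0223) and AT2G05920 (-1.14, adjusted p = 0.0405) between UV-B and UV-A in the authors' values, TPP2 (adjusted p = 0.0339), AT2G30440 clone 2747 (0.0365) and UBC20 (0.0485) between the same lights without blue replicate 3, and AT4G01610 between UV-B and blue light without UV-B replicate 2 (adjusted p = 0.0397). The share of all probes that gained a call in this way was not counted. The low light signal of UV-B replicate 1, with 83.1% of the members above background, limits what can be read for dim probes.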

Other observations

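The arrays also held spots of weight 0 that carry names of the same kind, among them the proteasome subunit PBB1, the metallopeptidase FTSH4 and the F-box protein SKIP2. For each name the ratio of light signal to background was averaged over its spots. On none of the 9 arrays did this mean exceed the highest ratio of a spot without a clone. The median light signal of these 3 names was 1.08, 1.20 and 1.16 times the background, so no level is given for them. The second set of spots named TPP2 was also of weight 0, with a median of 1.19 times the background. These are the spots that lowered the mean of TPP2 when weights were ignored.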
